A study of Rattus norvegicus with 4 samples.

Results

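Semaphorins, ephrins, Slits and netrins are the 4 ligand families best known for steering growing axons, and with their receptors they made up 71 of the 30708 genes listed for rat S16 cells. The S16 line was made from rat Schwann cells that grow without limit in culture, and Schwann cells are the glia that ensheath and myelinate the axons of peripheral nerves. The 71 genes were taken by symbol: semaphorins (Sema), plexins (Plxn), neuropilins (Nrp1 and Nrp2), ephrins (Efna, Efnb), Eph receptors (Epha, Ephb), Slits, Robos, numbered netrins (Ntn), symbols opening with Unc5, and Dcc. By family name 35 were counted as ligands and 34 as receptors. The remaining 2, Unc50 and Unc5cl, matched only by spelling, are not receptors of netrins, and were left out of both sides.

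Poly(A) RNA was sequenced from 2 populations of unmodified S16 cells with no treatment, 1 at passage 9 and 1 at passage 39. The passage 9 population was the parent of the enhancer-deleted rSOX-4 lines of the study, which are not analysed here, and the passage 39 population was an older passage of the line. Each population gave 2 libraries that the labels call technical replicates, numbered first and second below after their titles. With 1 population per passage no test between passages was possible, and all differences below are descriptions of these 4 libraries, with SD over the 2 population means (n = 2). Each such mean pools 1 first and 1 second library, so the SD does not show differences between first and second libraries.

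Guidance ligands and receptors act at short range between neighbouring cells or over a distance when secreted. Class 3 semaphorins bind neuropilins that signal through plexins, while the membrane-bound classes mostly bind plexins directly. Ephrins of class A are tethered by a lipid anchor and those of class B span the membrane, and both bind Eph tyrosine kinases on the opposing cell. Slits bind Robo receptors, and netrins bind Dcc or the Unc5 proteins. In peripheral nerve, ephrin-B and EphB proteins, semaphorins and Slits are known for guiding Schwann cells and regrowing axons past one another.

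The libraries held 34246093 to 41382234 reads, totals recovered from the spacing of the deposited RPKM values, and 139503 to 182883 of those reads fell on the 71 genes. The methods of the study state that technical replicates were pooled and run across sequencing lanes. The read number they give per cell line is lower than these totals, and the difference was not resolved. All read counts and counting intervals below rest on the recovered totals. RPKM is reads scaled by gene length and by the reads of the library, so levels of different genes can be set side by side. All 13 Schwann cell markers had a mean of at least 1 RPKM, with Sox10 at 176 RPKM. Of the other lists 3 of 10 neuron markers, 2 of 7 fibroblast markers, 1 of 6 macrophage markers, 1 of 5 melanocyte markers and 0 of 6 endothelial markers reached that level. The 3 neuron markers were Nefl at 93.8 RPKM, Tubb3 at 56.2 RPKM and Nefm at 29.8 RPKM. Beside Col1a1 the others were the fibroblast marker Pdgfra (5.35 RPKM), the macrophage marker Cd68 (1.40 RPKM) and the melanocyte marker Pmel (8.72 RPKM). The neuron markers Syt1, Elavl4 and Stmn2, the macrophage marker Ptprc and the endothelial marker Cdh5 were listed at 0 in every library, while the fibroblast marker Col1a1 stood at 3588 RPKM and Thy1 and Fap at 0. The summed neuron markers ran from 163 to 198 RPKM, the fibroblast markers from 3349 to 3883, the melanocyte markers from 8.35 to 9.30, the macrophage markers from 1.48 to 1.62 and the endothelial markers from 0.692 to 0.813. The libraries did not group as their labels do. Per gene, the mean chi-square between the read counts of libraries of 1 population was 64.9 at passage 9 and 62.2 at passage 39, where sampling noise alone gives about 1. Between same-numbered libraries of the 2 passages it was 1.12 and 1.36. Over the guidance genes the corresponding values were 169 and 170 within a population and 1.72 and 1.87 between passages. Medians over genes lay lower, at 23.9 and 18.2 within a population for guidance genes and 9.82 and 9.13 for all genes. Between passages the medians were 0.825 and 0.670 for guidance genes and 0.492 and 0.586 for all genes. Genes with at least 20 reads in the 2 libraries together were used. At a given fold difference this chi-square grows with a gene's reads, and the guidance genes were not matched to all genes for read number. The number is a label and not a condition of the study, and a difference in library handling cannot be told apart from it. The labels of passage and number may also be crossed, which these files cannot settle, and in that case the second minus first values below would be the passage differences.

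Of the 71 genes, 40 (56.3%) had a mean of at least 1 RPKM, against 35.9% of all listed genes. They were 24 of 35 ligands, 15 of 34 receptors and Unc50, and at 10 RPKM or more there were 10 ligands and 9 receptors. A further 20 genes lay between 0 and 1 RPKM. The remaining 11 were listed at 0 in all 4 libraries: Epha3, Epha5, Epha6, Epha7, Epha8, Ephb1, Ntn5, Robo1, Robo3, Sema5b and Unc5d. A listed 0 is not taken as absence, because 3 of 95 cytosolic ribosomal protein genes, which every cell uses, were also listed at 0 in every library. The ligands summed to 511 ± 3.61 RPKM and the receptors to 352 ± 1.69 RPKM, a ratio of 1.46 ± 0.0033. By library the ratio was 1.36 and 1.37 in the first libraries of passages 9 and 39 and 1.56 and 1.55 in the second libraries, so the small SD over populations hides a wider spread between libraries.

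**Figure D1:**
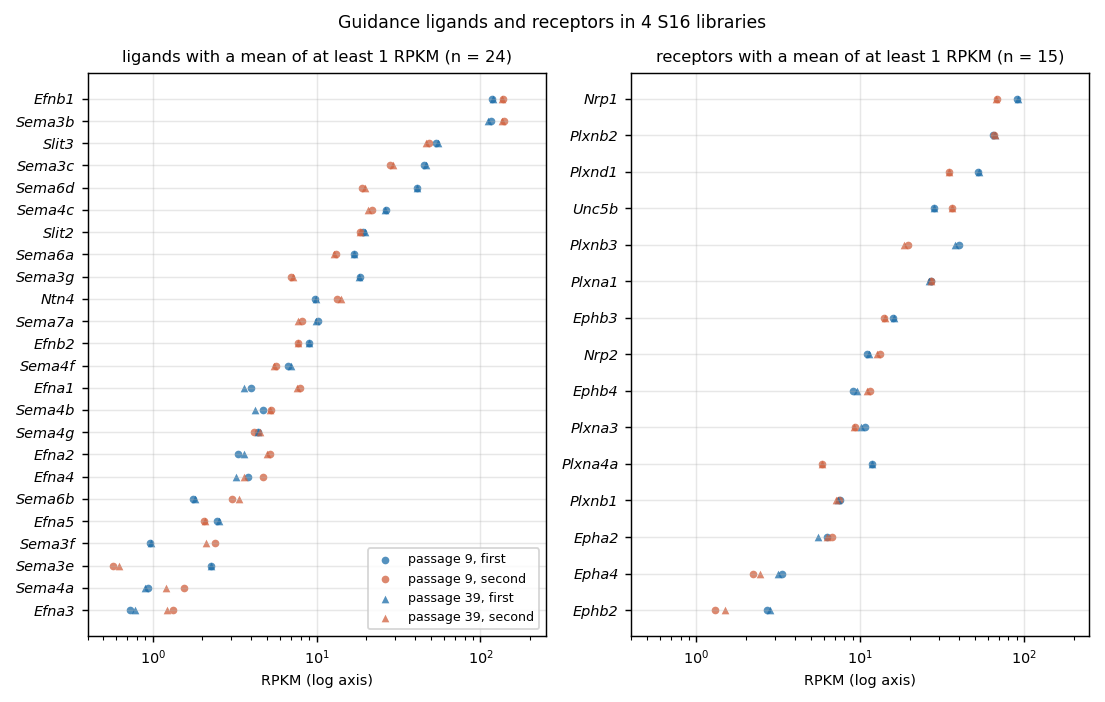
RPKM (log axis) of the 24 ligands and 15 receptors that averaged 1 RPKM or more, 1 point per library, with circles for passage 9, triangles for passage 39, blue for first and red for second libraries. Circles and triangles of 1 colour nearly coincide, while blue and red stand apart for genes such as Sema3g (18.3 and 18.2 against 6.99 and 7.20 RPKM).

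An ephrin and a semaphorin led the ligands, Efnb1 at 127 ± 0.36 RPKM and Sema3b at 125 ± 2.66 RPKM. Efnb1 encodes ephrin-B1, a transmembrane ligand of EphB receptors, with 118 RPKM in the first and 137 RPKM in the second library of passage 9, and 119 and then 135 RPKM at passage 39. Sema3b encodes a secreted class 3 semaphorin, with 115 and 139 RPKM in the passage 9 libraries and 111 and 136 RPKM in the passage 39 libraries. The ranges of these genes over the 4 libraries overlapped, so neither can be placed above the other. Slit3, the third ligand at 50.8 ± 0.157 RPKM (53.3, 48.5, 54.9 and 46.5 in the same order of libraries), lay below both in every library and above Sema3c in every library. Sema3c (37.2 ± 0.918), Sema6d (30.1 ± 0.437) and Sema4c (23.8 ± 0.656) followed with overlapping neighbours in this order, and all 4 libraries of Sema4c lay above those of Slit2 (19.0 ± 0.234).

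Nrp1 led the receptors at 79.6 ± 0.176 RPKM. It encodes neuropilin-1, the binding partner of class 3 semaphorins and of VEGF-A, and its 4 libraries read 91.0 and 68.5 RPKM at passage 9 and 91.6 and 67.4 at passage 39, all above every other receptor. Plxnb2, a receptor of class 4 semaphorins, came next at 65.5 ± 0.688 RPKM and was the steadiest of the leading receptors across libraries (64.2, 65.8, 66.0 and 65.9). Plxnd1 (43.8 ± 0.097), Unc5b (32.3 ± 0.102), Plxnb3 (29.0 ± 1.19) and Plxna1 (26.8 ± 0.39) followed, each overlapping its neighbour in this order, and all lay above Ephb3 (15.0 ± 0.158) in every library.

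Most semaphorin classes were present together with their receptors. Class 3 summed to 178 ± 1.81 RPKM with 5 of 7 genes at 1 RPKM or more, class 4 to 40.3 ± 0.802 RPKM with 5 of 6, class 6 to 47.8 ± 0.353 RPKM with 3 of 4, and the neuropilins and plexins to 91.6 ± 0.279 and 191 ± 1.14 RPKM with 2 of 2 and 7 of 9. Class 3 was mostly Sema3b, whereas Sema3a, the classical repellent of sensory axons, averaged 0.0102 RPKM and Sema3d 0.0778 RPKM. Sema4c, a membrane semaphorin that binds plexin-B2, read 26.7, 21.9, 26.2 and 20.5 RPKM. Sema4d, the ligand of plexin-B1, was listed above 0 in only 1 library at 0.00724 RPKM, while Plxnb1 itself averaged 7.32 ± 0.135 RPKM. Sema5a, a ligand of plexin-B3, was the higher of the class 5 genes and had 1, 0, 1 and 0 reads, although Plxnb3 averaged 29.0 RPKM. Sema7a, a lipid-anchored semaphorin that binds plexin-C1 and integrins, read 10.2, 8.13, 9.89 and 7.66 RPKM, while Plxnc1 averaged 0.0344 RPKM.

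Ephrins were more often present than Eph receptors, with 7 of 8 (87.5%) against 5 of 14 (35.7%) at 1 RPKM or more. The Eph receptor share was near the 35.9% of all listed genes. All 5 ephrin A genes were at 1 RPKM or more (sum 17.2 ± 0.82 RPKM), with Efna1 highest on average at 5.78 ± 0.268 RPKM, although Efna2 lay above it in the first library of passage 39 (3.62 against 3.60 RPKM). Of the 9 EphA genes 2 reached 1 RPKM, Epha2 at 6.17 ± 0.425 RPKM and Epha4 at 2.77 ± 0.0122 RPKM, and 5 were listed at 0. Epha2, a receptor that prefers ephrin-A1, read 6.26, 6.69, 5.49 and 6.26 RPKM. Ephrin B summed to 136 ± 0.434 RPKM, of which Efnb1 made up 93.8%, and 3 of 5 EphB genes were present and summed with the others to 27.5 ± 0.300 RPKM. Ephb3 read 15.8, 14.0, 16 and 14.2 RPKM, and Ephb4 averaged 10.3 ± 0.00706 RPKM. That SD hides a spread between libraries, as Ephb4 made up 32.7%, 42.6%, 33.4% and 40.9% of the EphB sum in the same order.

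Slit and Robo genes contrasted in every library. The Slits summed to 72.5, 67.0, 74.8 and 64.9 RPKM, from Slit3 and Slit2. All 4 Robo genes were below 1 RPKM: Robo1 and Robo3 were listed at 0, Robo4 was above 0 in only 1 library, and Robo2 read 0.131, 0.327, 0.138 and 0.359 RPKM from 56, 119, 49 and 153 reads. Every library thus listed Slit3 above 40 RPKM and no Robo gene above 1 RPKM. Among the genes taken by symbol, netrins and their receptors each had 1 gene that averaged 1 RPKM or more. Neo1, a relative of these receptors that the symbols do not take, averaged 5.09 RPKM. Ntn4, a laminin-related netrin of basement membranes, read 9.75, 13.3, 9.90 and 14.0 RPKM. Below that cut Ntn3 averaged 0.858 RPKM. Ntn1, the classical netrin, averaged 0.746 ± 0.118 RPKM and read 1.08 RPKM in the second library of passage 9. Unc5b, a repulsive netrin receptor, read 28.2, 36.5, 28.2 and 36.2 RPKM and made up 99.5% of its receptor family, and Dcc, the attractive netrin receptor, averaged 0.000708 RPKM.

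**Figure D2:**
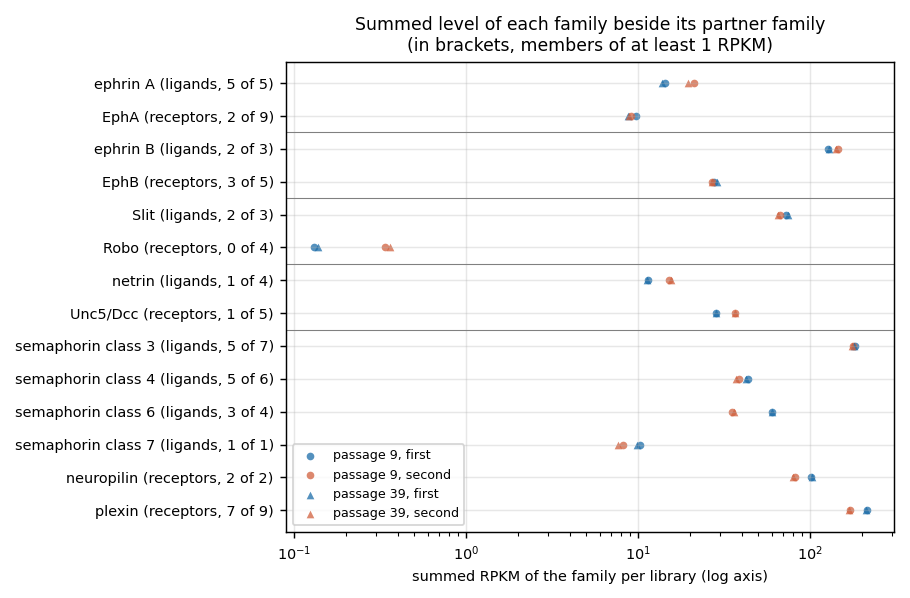
Summed RPKM of each family in each library (log axis), with ligand families above their receptor families and, in brackets, the members of at least 1 RPKM. Class 5 semaphorins, which averaged 0.00127 RPKM in sum, are not drawn, and the Robo sums (0.131 to 0.359 RPKM) lie far below the Slit sums (64.9 to 74.8 RPKM).

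Between libraries grouped by labelled passage the guidance genes differed little. Differences were taken between population means on the log2(RPKM + 1) scale, which understates the change of low genes, among the 11025 genes that averaged 1 RPKM or more, and called at 2-fold or at 1.5-fold. None of the 40 guidance genes tested was called at 2-fold (0.00907% of all tested genes were) and none at 1.5-fold (0.0272% of all). Their differences ran from -0.24 to 0.08, with a median of -0.0049 against -0.0018 for all tested genes. Both passage 39 libraries lay below both passage 9 libraries for 3 of the 40 (7.5%), Efna4, Plxnb1 and Plxna1, against 3.11% of all tested genes, and above them for 1 (2.5%), Plxnb2, against 3.1%. Efna4, which encodes the lipid-anchored ephrin-A4, showed the largest of these differences, from 3.79 and 4.73 RPKM at passage 9 to 3.24 and 3.61 RPKM at passage 39, a log2 difference of -0.24. Plxnb1 differed by -0.03 (7.47 and 7.36 against 7.31 and 7.14 RPKM), Plxna1 by -0.03 (27.2 and 27.0 against 26.1 and 26.9 RPKM), and Plxnb2 by 0.02. These groups did not overlap, but the gaps were small beside the spread between libraries of other guidance genes. Within first libraries the 95% counting intervals of the passages lay apart for 2 of the 40 guidance genes, Sema3b and Plxnb3, against 0.952% of tested genes with recovered reads, and within second libraries for 2, Sema4c and Slit3, against 2.01%. In both pairs together they lay apart for none of the 40, against 0.0816% of all.

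The libraries of 1 population differed far more from each other than the passages did. Both second libraries lay below both first libraries for 20 of the 40 guidance genes (50%), against 30.5% of all tested genes, and above both for 15 (37.5%), against 57.2% of all. The pairs overlapped for the other 5. In bulk RNA of this kind, fewer cells of one state and less RNA per cell cannot be told apart. The 95% counting intervals of first and second libraries lay apart in both passages for 28 of the 40 (70%), against 53.3% of all, without matching for read number. The median second minus first difference was -0.05 for the guidance genes and 0.10 for all tested genes, so the guidance genes stood at -0.16 relative to all genes. This all-gene shift depends on scaling: with the libraries rescaled to a common sum of RPKM it was -0.02, and with median-ratio scaling 0.03, and the share of all tested genes with both second libraries lower was then 46.3% and 39.4% and with both higher 37.7% and 45.8%. The guidance genes then counted 24 lower and 14 higher under either scaling. Recovered gene length moved with this difference too. The guidance genes tested had a median length of 4422 bp against 2622 bp for all tested genes, and across genes Spearman's rho between length and the second minus first difference was -0.42 for all (n = 11024) and -0.33 for the guidance genes (n = 40), a description over genes that share libraries. With the median difference of genes of like length taken away, the median was -0.053 for the guidance genes and 0 for all tested genes. The gap of -0.16 was thus smaller after this correction.

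At 2-fold 3 guidance genes were lower in the second libraries (7.5%), against 0.726% of all tested genes, and 0 were higher, against 0.372%. The 3 were semaphorins, Sema3g, Sema6d and Sema3e, but the set depends on the processing. Plxnb3 joined them with median-ratio scaling, and Plxnb3 and Plxna4a with a common sum of RPKM. With a pseudocount of 0.1 RPKM, Plxnb3 and Plxna4a joined as lower and Efna1 and Sema3f were called higher, so that 5 were lower and 2 higher. At 1.5-fold 8 were lower (20%), against 3.17% of all, made up of 4 ligands and 4 receptors, and 3 were higher (7.5%), against 2.89%, all of them ligands. With a common sum of RPKM 8 were lower and 2 higher, against 5.39% and 1.36% of all, and with median-ratio scaling also 8 and 2, against 4.28% and 1.74%, Sema6b losing its call in both. After the median difference of genes of like length was taken away the 2-fold calls were Sema3g, Sema3e and Plxnb3, Sema6d lost its call at -0.997, and Plxnd1 and Sema6b lost their 1.5-fold calls. The remaining 29 of the 40 differed by less than 1.5-fold on the log2(RPKM + 1) scale, although Efna3 had an RPKM ratio of second to first of 1.69.

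**Figure D3:**
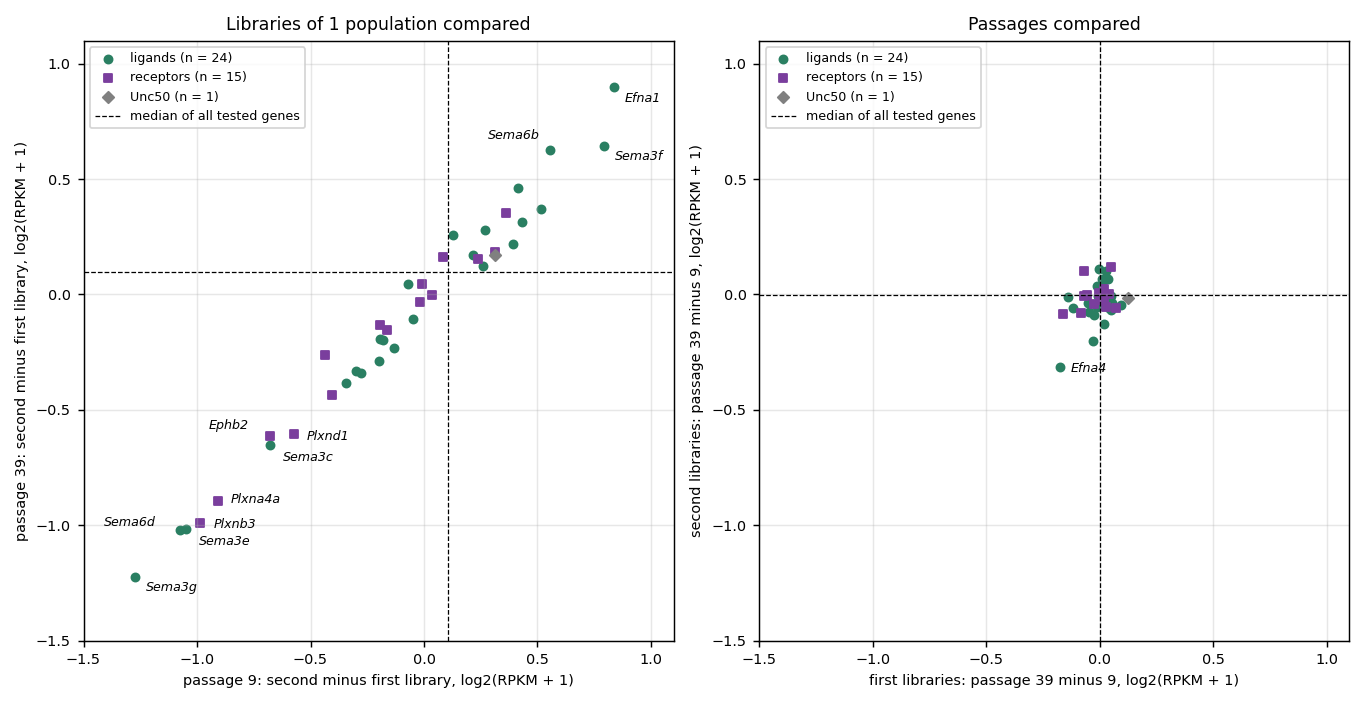
Differences on the log2(RPKM + 1) scale for the 40 guidance genes of at least 1 RPKM, on equal axes: left, second minus first library at passage 9 (x) and passage 39 (y), with genes past 1.5-fold named; right, passage 39 minus 9 in first (x) and second (y) libraries. Dashed lines mark the median of all 11025 tested genes; on the left points run along the diagonal from Sema3g (-1.25) to Efna1 (0.87), and on the right they stay near 0 with Efna4 (-0.24) the lowest on average.

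Upstream sequences are shown for the genes that lay furthest apart between numbers on the log2(RPKM + 1) scale: Sema3g and Sema6d, the ligands with the largest differences towards lower second libraries, Plxnb3, the receptor with the largest such difference, and Efna1, the gene with the largest difference the other way. With a pseudocount of 0.1 RPKM Sema3e (-1.77) passed Sema3g (-1.35) and Sema6d (-1.08), and Sema3f (1.13) passed Efna1 (1.01), which Sema3f also did after the length correction. Each is the 250 bases before the RefSeq start in build GRCr8, given 5′ to 3′ on the gene's strand, at chr16:6419775-6420024 (plus strand) for Sema3g, chr3:132337106-132337355 (plus) for Sema6d, chrX:156646624-156646873 (plus) for Plxnb3 and chr2:176986822-176987071 (minus) for Efna1. GRCr8 is a newer build than the one the reads were aligned to, and no position was carried over. Capitals mark monomers of the SOX10 consensus, for which 4 spellings were searched on both strands, namely ACAAA as one, then ACACA for another, then ACAAT for the third and finally ACAAG for the last, and overlapping matches run together. SOX10 is the Schwann cell transcription factor that the study was about.
Sema3g: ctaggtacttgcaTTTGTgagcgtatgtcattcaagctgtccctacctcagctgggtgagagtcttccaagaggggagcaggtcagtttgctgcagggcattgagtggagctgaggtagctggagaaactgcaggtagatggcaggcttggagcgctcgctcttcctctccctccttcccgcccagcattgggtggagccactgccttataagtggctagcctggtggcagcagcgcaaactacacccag
Sema6d: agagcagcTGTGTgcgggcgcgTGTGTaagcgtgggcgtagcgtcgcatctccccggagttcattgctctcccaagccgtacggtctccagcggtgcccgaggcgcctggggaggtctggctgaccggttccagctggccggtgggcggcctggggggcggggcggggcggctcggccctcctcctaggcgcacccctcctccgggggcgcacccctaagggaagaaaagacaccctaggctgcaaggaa
Plxnb3: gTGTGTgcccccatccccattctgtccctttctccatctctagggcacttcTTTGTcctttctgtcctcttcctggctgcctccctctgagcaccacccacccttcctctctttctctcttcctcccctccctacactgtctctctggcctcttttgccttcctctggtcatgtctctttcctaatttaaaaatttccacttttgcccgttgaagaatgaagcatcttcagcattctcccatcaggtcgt
Efna1: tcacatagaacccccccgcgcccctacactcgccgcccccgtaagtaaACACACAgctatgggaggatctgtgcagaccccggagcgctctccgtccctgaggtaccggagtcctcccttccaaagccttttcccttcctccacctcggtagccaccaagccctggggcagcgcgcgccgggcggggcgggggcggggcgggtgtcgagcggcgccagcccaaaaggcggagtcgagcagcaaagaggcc
Sema3g held 1 such monomer, and the others 2 each. G and C made up 56.8% of the Sema3g window, 70.4% of Sema6d, 50.8% of Plxnb3 and 68.4% of Efna1. An upstream window was available in the sequence set used for 56 guidance genes. Of these 41 (73.2%) held a monomer, against 78.9% of all 27457 upstream windows of this length. Among genes of at least 1 RPKM the shares were 78.8% of 33 guidance genes and 65.7% of 8341 genes. A 5-letter match of this kind is common and is given as a description of the letters only.

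The lower semaphorins came from class 3 and class 6. Sema3g, a secreted semaphorin that binds neuropilin-2, read 18.3 RPKM in the first and 6.99 in the second library of passage 9, and 18.2 and 7.20 at passage 39. Both first libraries were high and both second libraries low, with 95% counting intervals of 17.6 to 19.0 and 6.54 to 7.47 RPKM at passage 9, and the mean RPKM ratio of first to second was 2.57. The log2 difference was -1.25, or -1.35 less the all-gene median. Sema6d, a transmembrane semaphorin that binds plexin-A1, read 40.8 and 18.8 RPKM at passage 9 and 41.1 and 19.8 at passage 39, a log2 difference of -1.05. Sema3e, the ligand of plexin-D1, read 2.25 and 0.572 RPKM, and 2.27 and 0.619 RPKM, from 418, 90, 349 and 114 reads, a log2 difference of -1.03. Its ratio of first to second RPKM was 3.8, which the pseudocount of 1 RPKM compresses on the log2 scale. Sema3c read 45.2 and 27.9, and 46.4 and 29.2 RPKM, a log2 difference of -0.66. For these 4 genes first and second libraries did not overlap in either passage.

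The 4 receptors lower by 1.5-fold or more were 3 plexins and an EphB receptor. Plxnb3 read 40.0 and 19.7 RPKM at passage 9 and 37.8 and 18.5 at passage 39, a log2 difference of -0.99 that fell just short of the 2-fold call although the RPKM ratio was 2.04. Plxna4a, the symbol listed for plexin-A4, a partner of neuropilin-1, read 11.8 and 5.83, and 11.8 and 5.86 RPKM, a log2 difference of -0.90. Plxnd1, the receptor of semaphorin 3E, read 52.5 and 34.9, and 53.2 and 34.6 RPKM, a log2 difference of -0.59. Ephb2, a receptor of ephrin-B ligands, read 2.69 and 1.30, and 2.82 and 1.5 RPKM, a log2 difference of -0.65. Sema3e and its receptor Plxnd1 therefore both stood lower in the second libraries, while Plxnb1 and Plxnb2 differed by only -0.02 and 0.02.

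The 3 genes that were higher by 1.5-fold or more in the second libraries were all ligands. Both second libraries lay above both first for 10 of 24 ligands, 4 of 15 receptors and Unc50, against 57.2% of all tested genes. They lay below both first for 12 of the ligands and 8 of the receptors, against 30.5% of all. Among the 4 receptors with higher second libraries Unc5b differed most, by 0.36. Efna1, a lipid-anchored ligand of EphA2, read 4.0 and 7.93 RPKM at passage 9 and 3.60 and 7.57 at passage 39, a log2 difference of 0.87, or 0.76 less the all-gene median. Sema3f, a secreted semaphorin with high affinity for neuropilin-2, read 0.955 and 2.39, and 0.982 and 2.10 RPKM, a log2 difference of 0.72. Sema6b, a transmembrane semaphorin that binds A-type plexins, read 1.76 and 3.06, and 1.82 and 3.35 RPKM, a log2 difference of 0.59. Thus class 3 held genes on both sides. Efna2 (3.33 and 5.18, and 3.62 and 4.98 RPKM) and Efna3 (0.722 and 1.32, and 0.782 and 1.22 RPKM) were higher by 0.44 and 0.37, below the 1.5-fold call, as was Ntn4 by 0.44.

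Class 3 held differences both ways, and its sum changed less than its makeup. These semaphorins summed to 182 and 177 RPKM at passage 9 and to 179 and 175 RPKM at passage 39. Within that sum Sema3b took 63.3% of the first and 78.6% of the second library at passage 9, and 62.2% and 77.5% at passage 39. Sema3c took 24.8% and 15.7%, and 25.9% and 16.7%, and Sema3g took 10.1% and 3.95%, and 10.1% and 4.12%. Of the 7 plexins tested 4 were lower in both second libraries and 0 higher in both. Of all tested genes 30.5% were lower in both and 57.2% higher in both, shares that depend on scaling. The plexins summed to 214 and 170, and 212 and 168 RPKM. In that sum Plxnb2 took 30.0% and 38.7%, and 31.1% and 39.2%, at a nearly constant level of its own. Plxnb3 took 18.7% and 11.6%, and 17.8% and 11.0%. Class 6 summed to 59.8 and 35.3, and 60.03 and 36.0 RPKM, and ephrin A to 14.3 and 21.2, and 13.8 and 19.5 RPKM.

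**Figure D4:**
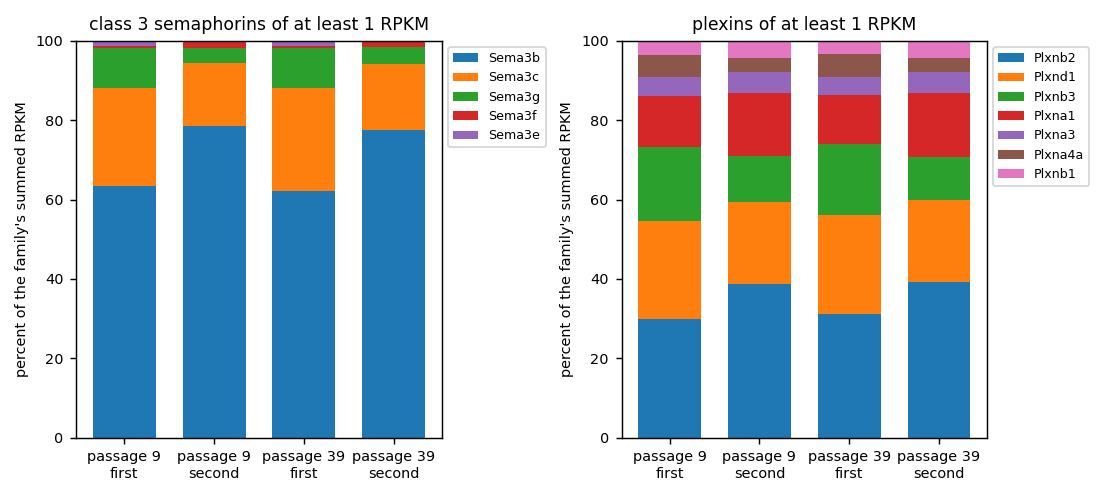
Stacked bars of the percent of a family's summed RPKM that each gene of at least 1 RPKM took in each library, for class 3 semaphorins (left) and plexins (right). Sema3b takes 62.2% to 63.3% in the first and 77.5% to 78.6% in the second libraries.

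Below 1 RPKM, 20 guidance genes were above 0 in 1 library or more, and reads could be recovered for 16 of them. First and second libraries had counting intervals that lay apart in both passages for 4 (25%), Ntn1, Plxna2, Robo2 and Unc5c, against 5.12% of all genes below 1 RPKM with recovered reads, all 4 with more RPKM in the second libraries. Plxna2 had 1 and 13 reads at passage 9 and 0 and 13 at passage 39, and Ntn1 had 56 and 89, and 38 and 82 reads. Unc5c, a netrin receptor, had 29 and 60, and 18 and 57 reads. These low values were left out of the fold calls, and the shares of intervals apart were not matched for read number.

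The co-receptors and cytoplasmic partners of guidance receptors were mostly present. Of 86 listed genes of this kind 66 were at 1 RPKM or more, against 35.9% of all listed genes, and 5 were listed at 0. The highest were Cfl1, the actin-severing protein cofilin, at 1108 RPKM, the integrin subunit Itgb1 at 462 RPKM and the proteoglycan Gpc1, a Slit-binding glypican, at 343 RPKM. None was called at 2-fold between passages. In the second libraries 3 of the 66 were at least 2-fold lower and 0 higher, against 0.726% and 0.372% of all tested genes, and at 1.5-fold 7 were lower and 1 higher, against 3.17% and 2.89%. The lower genes included Chl1, an adhesion molecule that partners neuropilin-1, which read 6.91 and 0.787 RPKM (passage 9) and 6.92 and 1.09 RPKM (passage 39), a log2 difference of -2.03. Chn2, the Rac regulator beta-chimaerin, read 8.83 and 3.00, and 9.17 and 3.59 RPKM, and Pdzrn3, a PDZ-domain ubiquitin ligase, read 50.4 and 22.9, and 49.3 and 22.5 RPKM. Cntn2, the axonal adhesion molecule contactin-2, was the 1 higher gene, at 2.89 and 5.67, and 2.77 and 5.84 RPKM. Schwann cell markers differed between the same libraries, with S100b at 85.7 and 31.8, and 86.6 and 32.8 RPKM and Sox10 at 174 and 183, and 171 and 176 RPKM. The part of such library differences in the guidance values was not tested.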

How the data were processed

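Rat S16 cells were profiled by single-end poly(A) RNA-Seq. According to the labels and the study's methods, the authors checked reads with FastQC, aligned them to rat build rn5 with STAR, kept only reads with a unique position, and used HTSeq, with strand ignored, to count reads per gene, so overlapping or antisense genes cannot be told apart. Reads shared with a near-identical copy are lost. Tool versions are not given in the sources used here. The authors deposited RPKM values per gene symbol, 1 table per library. The tables name RefSeq gene models, whereas the methods name an Ensembl genome. RPKM levels rest on the gene length the authors used, and the recovered lengths ran from 641 bp (Sema4b) to 12995 bp (Plxna4a) over the guidance genes tested.

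The guidance genes, the marker and partner lists and the comparisons were chosen with earlier results of these data known. Library totals, gene lengths and whole reads were recovered from the deposited RPKM as the smallest whole numbers that fitted within a relative tolerance of 1e-06, for 18113 of the 18114 genes above 0 in 2 or more libraries. Totals were 41382234 and 35092464 reads (passage 9) and 34246093 and 41083270 reads (passage 39). On simulated data for 18113 genes, 96.6% of those whose reads could be recovered had exact reads. There 200 of 200 genes changed 4-fold between first and second libraries were called, and 0 unchanged genes were. A 4-fold change lies beyond the 2-fold call, so these counts only check the computation. How often calls are false in the 4 deposited libraries was not tested. Exact (Clopper-Pearson) 95% intervals cover counting error only. They narrow relative to the level as reads rise, so shares of intervals that lie apart depend on read number. A tested guidance gene had 60 to 21214 reads per library.

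Libraries were averaged within a population. Differences used log2(RPKM + 1) among genes of at least 1 RPKM, and no test was run, since each passage was 1 population. Values per library were given for the 6 highest ligands and receptors, each family's highest gene, up to 6 genes in each direction with the largest difference between first and second libraries, up to 3 in each direction between passages, and genes listed at 0, and others were named after their values were seen. Alternatives covered scaling, the pseudocount, the minimum level, gene length, and leaving out each library. Python 3.11.15, numpy 2.4.6, pandas 2.3.3, scipy 1.17.1 and matplotlib 3.10.9 were used.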

Additional observations from a re-analysis of the deposited data

Results flagged for a closer look

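For 3 guidance genes the second library lay above the first in one passage and below it in the other. Plxna1 differed by -0.01 (log2, second minus first) at passage 9 and by 0.04 at passage 39, a difference of 0.054. Plxnb2 differed by 0.03 and -0.0023, a difference of -0.037, and Sema4g by -0.07 and 0.05, a difference of 0.1151. With 1 library of each number per passage the difference between passages was not tested, and all 3 genes were among the steadiest of the guidance genes.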

How the results depend on the processing

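Values moved by more than the spread between the 2 populations, or counts by over 1.5 times, as follows, and where no construction is named the cause was not tested. The 3 guidance genes called 2-fold between first and second libraries became 5 (all lower) with a common sum of RPKM and 7 (5 lower, 2 higher) with a pseudocount of 0.1 RPKM, which compresses low genes less. Their median second minus first difference (-0.052) became -0.186 with a common sum, -0.134 with median-ratio scaling, -0.024 at a minimum of 0.1 RPKM, -0.161 at a minimum of 5 RPKM, 0 with no minimum, -0.060 within passage 9 and -0.069 within passage 39, and -0.114 to -0.045 with each library left out. The median passage difference ran from -0.078 to 0.053 with each library left out, which leaves the passages unequal in first and second libraries, and so has no firm sign. The ratio of ligands to receptors (1.46) became 1.41 without Efnb1 and Nrp1, 1.60 as a ratio of numbers, 1.37 with Unc50 and Unc5cl counted as receptors, and 1.41 to 1.51 with each library left out. The within-number, within-passage and Unc50 alternatives were chosen after seeing the data. Beside these 22 values the other 43 stayed within that spread or, for counts, within 1.5 times the reported count. Among them the guidance genes detected went from 40 to 47 at a minimum of 0.1 RPKM and to 28 at a minimum of 5 RPKM, and the 2-fold count went to 4 with median-ratio scaling or without passage 9 replicate 2 or passage 39 replicate 1. No alternative gave a 2-fold call between passages. The length correction left the guidance median of second minus first at -0.053, while the all-gene median went from 0.10 to 0. The 12 genes named for a difference between first and second libraries kept their sign in all 8 alternatives, and the 4 named for passage in all 7. No paired test was possible because no result comes from a test, and within first and within second libraries the median passage difference was 0.0088 and -0.015. At this depth Sema5a rests on 0 or 1 read per library, and for Sema4d and Dcc no reads could be recovered, so these genes cannot be ordered.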
